A study of Mus musculus with 13 samples.

Results

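The genes described here are 8 nuclear genes whose proteins build or maintain the mitochondrial respiratory chain, out of 56923 gene IDs in each deposited count table. They were picked by name, among genes in stretches of the genome where gene names can be used. The complex I accessory subunit gene Ndufb6 and the complex IV subunit genes Ndufa4 and Cox6c are structural. Ndufaf4 and Ndufaf6 encode factors that assemble complex I, and Coq3 encodes a methyltransferase of coenzyme Q synthesis. Stoml2 encodes a scaffold protein of the inner membrane that binds cardiolipin and prohibitins, and Mtpap encodes the poly(A) polymerase of mitochondria.

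The respiratory chain passes electrons from NADH and succinate through complexes I to IV to oxygen and pumps protons that drive ATP synthase. Its subunits come from both the nuclear and the mitochondrial genome, so nuclear gene products have to be imported and assembled with those made inside the organelle. Activated lymphocytes and macrophages are known to change their use of respiration.

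The RNA came from CD45-positive cells sorted from subcutaneous EL4 tumours of mice; the EL4 line is a T-cell lymphoma of mouse origin. The PSGL1_KO group had 6 libraries from tumours grown from EL4 cells with a knockout of PSGL1, a selectin ligand of leukocytes, and the vector group had 7 libraries from tumours of vector EL4 cells. Each mouse was 6 to 8 weeks old and received 500000 cells under the skin, and tumours were resected after almost 20 days. The labels do not state strain, sex or how many knockout clones were used. They number replicates without naming mice, so a p-value reflects spread among libraries, part of which may be technical. A treatment label counts the line's number up from sample to sample (EL4, EL5 and on), while all titles and the growth protocol say EL4. EL4 cells belong to the CD45-positive lineage themselves, and the labels do not say how far tumour cells were removed. In such bulk samples, fewer cells of a type and less RNA per cell cannot be told apart.

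The files carry a number whose first digit is 7 or 3, and the labels do not say what it marks. Among PSGL1_KO libraries 4 have a 7 and 2 have a 3, and among vector libraries 5 have a 7 and 2 have a 3. Gene IDs received 3710817 to 5712566 counts per library, 10.5% to 12.5% of all rows' totals. In an earlier analysis of these libraries gene names matched the counts only in 4 stretches of the nuclear genome. Names on the mitochondrial chromosome were used here too, and their match to the counts was not checked. The 4 stretches were taken over here and not derived again. All 8 genes lie in those stretches, which span GRCm38 chromosome 4 from 3.55 to 59.8 Mb, chromosome 6 from 3.46 to 17.34 Mb, chromosome 15 from 9.07 to 38.08 Mb and chromosome 18 from 3.27 to 10.05 Mb. The ID of the targeted gene, Selplg, lies outside them and had 3 to 63 counts in PSGL1_KO and 11 to 53 counts in vector libraries, so it could not check the labels. The ID of Ptprc, the gene of CD45, also lies outside them and could not check the sort. The share of gene counts on IDs of the mitochondrial chromosome was 34.5% in vector replicate 5, against 10% to 17.8% elsewhere.

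None of the 8 genes passed the test between PSGL1_KO and vector libraries over all 13 libraries with the group as the only term. With the first digit of the file number as a covariate 2 of them passed, Stoml2 and Ndufaf4, both higher. That fit called 13.8% of IDs higher. Between the file-number sets 5 of the 8 were called, where 39.8% of all IDs and 52.3% of the protein-coding IDs of the stretches were. The test was edgeR's quasi-likelihood test with Benjamini-Hochberg adjustment over 10422 gene IDs, and a gene is called at an adjusted p under 0.05. In the group comparison 14.5% of those IDs were called, 9.02% higher and 5.49% lower. Among the 327 protein-coding IDs tested in the stretches 24.5% were called, 21.7% higher and 2.75% lower. At an unadjusted p under 0.05 there were 2 of the 8, Stoml2 and Ndufaf6. The log2 fold change (PSGL1_KO minus vector) was positive for 7 of the 8 and negative for Ndufa4. Its median over the 8 was 0.22, against -0.01 over all IDs tested and 0.23 over the protein-coding IDs of the same stretches. With scaling factors taken from the protein-coding IDs of the stretches the median of all IDs moved to -0.23, that of the 8 to -0.05, and Cox6c, Ndufb6, Coq3 and Mtpap had the opposite sign. Ndufaf4, Ndufaf6 and Stoml2 stayed positive. Ndufa4 stayed negative, the direction in which the median of all IDs moved. No gene of the 8 had all PSGL1_KO libraries above or all below the vector libraries, which 4.14% and 2.41% of the IDs tested had.

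**Figure D1:**
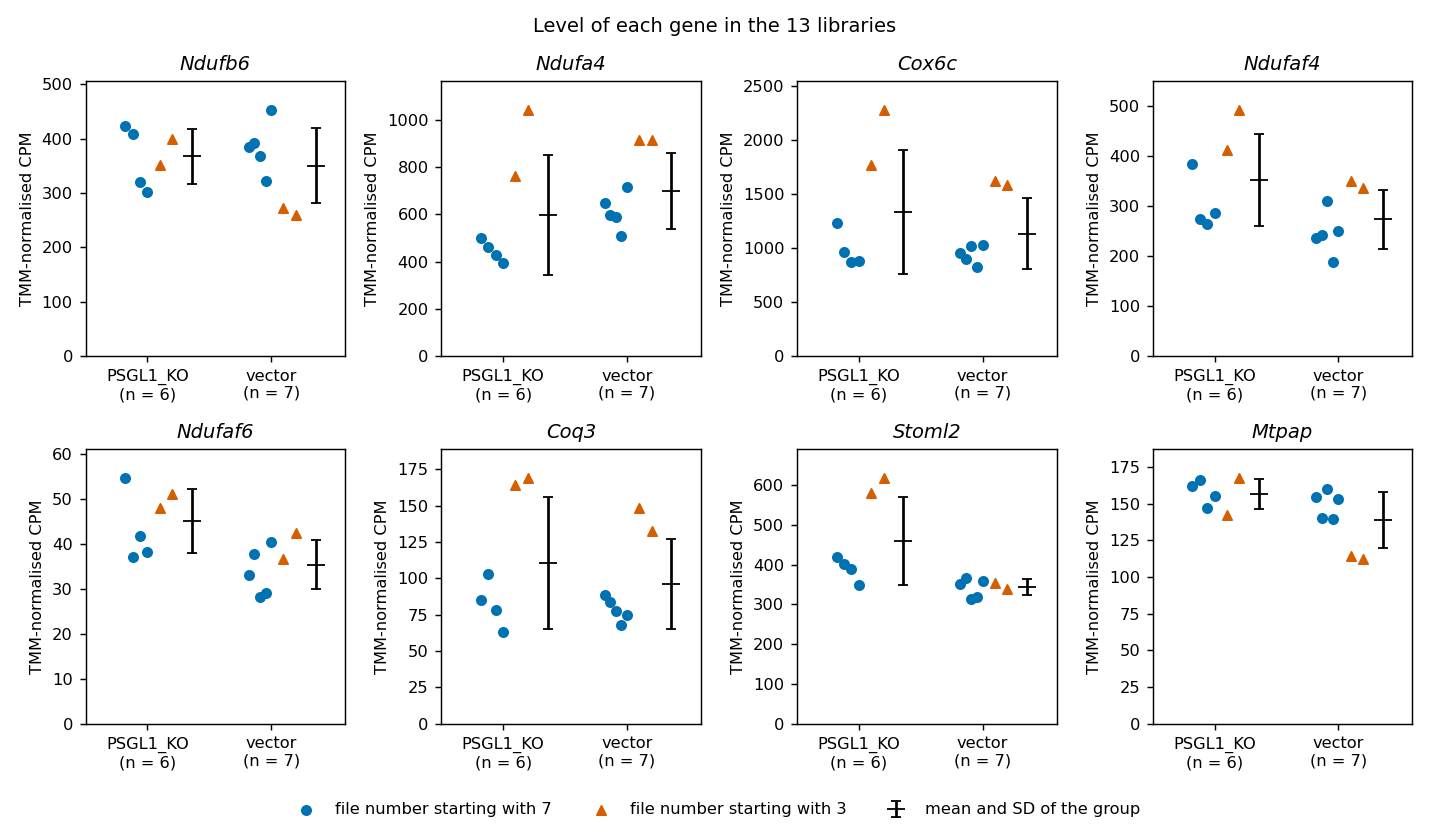
TMM-normalised CPM (counts scaled to library size, y axes from 0) of the 8 genes in each library, with PSGL1_KO left of vector, circles for file numbers starting with 7, triangles for those starting with 3, and the mean with its SD over the group. In Ndufa4, Cox6c and Coq3 the 4 triangles stand above every circle, and in Stoml2 the triangles of PSGL1_KO, at 580.8 and 617 CPM, stand above all vector libraries.

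Ndufa4 and Cox6c encode subunits of cytochrome c oxidase, the enzyme that hands electrons to oxygen. NDUFA4 carries a complex I name but is now counted with complex IV. Ndufa4 (ENSMUSG00000029632.8, GRCm38 chromosome 6, 11900292 to 11907497, minus strand) had 392.5, 481.4 and 1041 CPM as the lowest, median and highest of the 6 PSGL1_KO libraries, against 508.2, 647.4 and 917.3 CPM in the 7 vector libraries. The groups overlapped, since PSGL1_KO libraries held both ends of the range. The mean was 598.3 ± 253.9 CPM in PSGL1_KO (SD, n = 6) and 698.6 ± 161.4 CPM in vector (SD, n = 7), and the log2 fold change was -0.22 ± 0.22 (SE; adjusted p = 0.57). It was -0.50 ± 0.17 with adjusted p = 0.051 with factors from the stretches, and -0.44 with adjusted p = 0.16 without PSGL1_KO replicate 2. Over all fits that left out 1 library it lay between -0.44 and -0.10.

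Within the file numbers starting with 7 Ndufa4 was lower in PSGL1_KO. PSGL1_KO replicates 3 to 6 had 500.1, 462.7, 429.7 and 392.5 CPM, against 647.4, 597.4, 589.3, 508.2 and 714.7 CPM in vector replicates 3 to 7. All 4 PSGL1_KO libraries were below all 5 vector libraries, as were 8.92% of IDs. The log2 fold change there was -0.46 ± 0.12 with adjusted p = 0.011 in the edgeR test, and Ndufa4 was the single one of the 8 genes called, lower, where 9.63% of IDs were called lower and 20.8% in either direction. It stayed called without any one of these 9 libraries, at -0.52 to -0.40. It was also called with factors from the stretches, at -0.59. The protein-coding IDs of the stretches had a median of 0.12 there, so these factors move every gene down. That fit is therefore no check of a lower gene. Within the file numbers starting with 3, PSGL1_KO had 763.8 and 1041 CPM and vector 915.7 and 917.3 CPM, a log2 fold change of 0.01 with a 95% interval from -0.36 to 0.37. The difference of the PSGL1_KO effect between the file-number sets was -0.43 ± 0.22 with adjusted p = 0.3, so it is not shown to differ. With the first digit as a covariate over all 13 libraries Ndufa4 had -0.32 ± 0.12 with adjusted p = 0.055.

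Cox6c, a small accessory subunit of complex IV (ENSMUSG00000014313.16, chromosome 15, 35925886 to 35938246, minus strand), had the highest counts of the 8 genes. Its lowest, median and highest level was 868.1, 1097 and 2277 CPM in PSGL1_KO libraries, against 820.8, 1017 and 1624 CPM in vector libraries. PSGL1_KO replicates 1 and 2 exceeded every vector library and the other 4 lay among them. The groups differed by 0.23 ± 0.24 in log2 fold change (95% interval -0.27 to 0.74; adjusted p = 0.58). This was 0.03 without PSGL1_KO replicate 2, within a range of 0.03 to 0.36 over the fits that left out 1 library, and -0.05 with factors from the stretches. Annotated exons of Cox6c share 250 bases, 7.0% of its exon length, with Vps13b on the other strand, and no strand setting is given, so reads there cannot be told apart. The ID of Vps13b had -0.37 with adjusted p = 0.1.

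The ratio of the counts of Ndufa4 and Cox6c is given as a description of 1 pair. Per library, Ndufa4 had 0.405 to 0.495 of the count of Cox6c in PSGL1_KO and 0.564 to 0.697 in vector libraries, with means of 0.453 ± 0.033 (SD, n = 6) and 0.626 ± 0.054 (SD, n = 7). The groups did not overlap, and the libraries of both file-number sets lay on the side of their group. A ratio of counts within a library does not depend on how libraries are scaled. This pair was picked after its values had been seen: of the 28 pairs among the 8 genes it was the only one whose groups did not overlap, or 3.57% of pairs. Among 53301 pairs of protein-coding IDs of the stretches that share was 11.6%, so the 8 genes held no surplus of such pairs. Between the file-number sets 13 of the 28 pairs did not overlap, a larger share than the 19.4% of the pairs of protein-coding IDs. Pairs that share a gene are not independent, and this surplus was not tested.

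**Figure D2:**
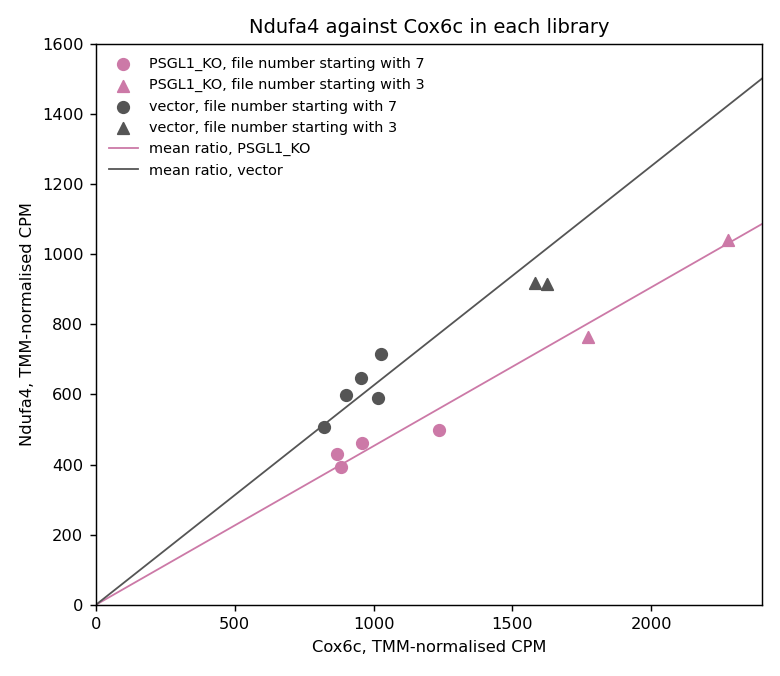
Level of Ndufa4 (y axis) against Cox6c (x axis) in each library, both in TMM-normalised CPM from 0, PSGL1_KO in pink and vector in grey, with file numbers starting with 7 as circles and with 3 as triangles. The lines have the slope of the mean ratio, 0.453 in PSGL1_KO and 0.626 in vector, and every PSGL1_KO library lies nearer its own line, including the triangles at high levels.

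Ndufb6, an accessory subunit of the membrane arm of complex I (ENSMUSG00000071014.11, chromosome 4, 40270591 to 40279421, minus strand), was not called between the groups over all libraries. Its lowest, median and highest level was 301.3, 375.1 and 423.8 CPM in PSGL1_KO libraries, against 258.8, 368.1 and 451.7 CPM in vector libraries, and the vector libraries held both ends. It had a log2 fold change of 0.07 with a 95% interval from -0.25 to 0.39. Within the file numbers starting with 3, PSGL1_KO had 350.8 and 399.4 CPM and vector 273.1 and 258.8 CPM, and Ndufb6 was called higher at 0.53 ± 0.19 with adjusted p = 0.025. This call was lost with factors from the stretches, at 0.11, and without vector replicate 1, vector replicate 2 or PSGL1_KO replicate 2, at adjusted p of 0.25, 0.33 and 0.053. Each of these fits has 1 library in an arm, which is assumed to vary like the 2 of the other group, so they say little about stability. Within the file numbers starting with 7 it had -0.08, and the test of that difference gave -0.57 ± 0.22 with adjusted p = 0.17. Smim27, on the other strand, shares 257 bases or 39.0% of the exon length of Ndufb6, and its ID had a log2 fold change of 0.02.

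The complex I assembly factors had positive log2 fold changes. Ndufaf4 (ENSMUSG00000028261.14, chromosome 4, 24898083 to 24905001, plus strand), which acts with NDUFAF3 early in assembly, had 264.5, 334.5 and 490.4 CPM as lowest, median and highest in PSGL1_KO libraries, against 187, 248.9 and 348.8 CPM in vector libraries. PSGL1_KO replicates 1, 2 and 3 exceeded every vector library, and 4 vector libraries lay below every PSGL1_KO library. Its log2 fold change was 0.37 ± 0.18 with adjusted p = 0.2. With the first digit as a covariate it was 0.33 ± 0.12 with adjusted p = 0.047. That call was lost with factors from the stretches, at 0.11, with RLE factors, at adjusted p = 0.058, and in 10 of 13 fits that left out 1 library, with adjusted p up to 0.13. The 3 fits that kept it left out vector replicate 5, PSGL1_KO replicate 5 and PSGL1_KO replicate 6.

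Ndufaf6 (ENSMUSG00000050323.15, chromosome 4, 11051045 to 11076205, minus strand), a factor for which human disease alleles of complex I are known, had the lowest counts of the 8, from 116 to 292 per library. Its lowest, median and highest level was 37.2, 44.9 and 54.6 CPM in PSGL1_KO libraries, against 28.1, 36.6 and 42.5 CPM in vector libraries. Of the 6 PSGL1_KO libraries 3 were above all vector libraries. The log2 fold change was 0.35 ± 0.15 with adjusted p = 0.15. Its value was close in the other fits too, at 0.34 within the file numbers starting with 7, 0.35 within those starting with 3 and 0.34 with the digit as a covariate, and none of these passed. With factors from the stretches it was 0.12.

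Coenzyme Q carries electrons from complexes I and II to complex III, and COQ3 methylates its ring. Coq3 (ENSMUSG00000028247.3, chromosome 4, 21879673 to 21912162, plus strand) had 63.2, 93.9 and 168.7 CPM as lowest, median and highest in PSGL1_KO libraries, against 68.0, 83.6 and 148.4 CPM in vector libraries. The groups overlapped apart from PSGL1_KO replicate 6 at the bottom and PSGL1_KO replicates 1 and 2 at the top. The log2 fold change was 0.20 with a 95% interval from -0.32 to 0.71. It was 0.05 without PSGL1_KO replicate 1 and 0.05 without replicate 2, at most 0.34 without another library, and -0.08 with factors from the stretches.

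Stoml2 came closest to a call between the groups in the fit with the group as the only term. In T cells of mice its protein is known to take part in cardiolipin-rich membrane domains that hold respiratory complexes. Stoml2 (ENSMUSG00000028455.16, chromosome 4, 43027690 to 43031710, minus strand) had 348.6, 411.4 and 617 CPM as lowest, median and highest in PSGL1_KO libraries, against 314, 351.8 and 366.1 CPM in vector libraries. All PSGL1_KO libraries but replicate 6 exceeded every vector library, and the vector libraries lay close together. The mean was 459.8 ± 110.9 CPM in PSGL1_KO (SD, n = 6) and 343.7 ± 20.1 CPM in vector (SD, n = 7), a log2 fold change of 0.42 ± 0.15 (95% interval 0.11 to 0.73; adjusted p = 0.065 in the edgeR test). Exons of Gm26643 on the other strand share 502 bases or 16.6% of the exon length of Stoml2, and that gene was not analysed here. DESeq2 gave the same 0.42 with adjusted p = 0.043, and without PSGL1_KO replicate 6 the edgeR adjusted p was 0.039. With factors from the stretches it was 0.16 with edgeR adjusted p = 0.3, and without PSGL1_KO replicate 1 or 2 it was 0.34 and 0.33, both with adjusted p = 0.16.

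With the first digit as a covariate Stoml2 was called higher, at 0.37 ± 0.11 with adjusted p = 0.016. That fit called 2 of the 8 genes higher, Stoml2 and Ndufaf4, where it called 13.8% of IDs higher and 25.8% in either direction. The call of Stoml2 was lost without vector replicate 2, at adjusted p = 0.068, and with factors from the stretches, at 0.15. Within the file numbers starting with 3, PSGL1_KO had 580.8 and 617 CPM and vector 354.5 and 339.4 CPM, a log2 fold change of 0.82 ± 0.19 with adjusted p = 2e-04. With factors from the stretches it was 0.40 with adjusted p = 0.029, and without vector replicate 1 or 2 adjusted p was 0.067 and 0.074, again with 1 library in an arm and the spread of the other group. These are 2 libraries per group, in which Stoml2 and Ndufb6 were the 2 of the 8 genes called higher, where 12.5% of IDs were called higher and 23.2% in either direction. Apart from Ndufa4, the other 7 genes had both PSGL1_KO libraries above both vector libraries there, as 27.3% of IDs did, while 33.6% had both below. The median log2 fold change there was 0.40 over the 8 genes, 0.43 over the protein-coding IDs of the stretches and -0.04 over all IDs, so the 8 were no higher than their surroundings. Within the file numbers starting with 7, PSGL1_KO had 420, 402.8, 389.3 and 348.6 CPM and vector 351.8, 366.1, 314, 320 and 360.1 CPM, a log2 fold change of 0.18 with adjusted p = 0.23.

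The difference of the PSGL1_KO effect between the file-number sets was called in 0 of the 8 genes and in 2.11% of IDs, 1.14% with a positive and 0.969% with a negative difference. These counts depended on single libraries, at 1 positive and 2 negative IDs without PSGL1_KO replicate 2 and 224 positive and 437 negative IDs without vector replicate 5. At an unadjusted p under 0.05 there were 2 of the 8, Stoml2 and Ndufb6. For Stoml2 it was -0.60 ± 0.18 (first digit 7 minus 3) with adjusted p = 0.077. It passed with DESeq2, at -0.64 with adjusted p = 0.019, and without vector replicate 5 or PSGL1_KO replicate 3, at adjusted p of 0.021 and 0.041. With factors from the stretches it was -0.28 with adjusted p = 0.3.

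Mtpap adds poly(A) tails to mitochondrial transcripts. It (ENSMUSG00000024234.8, chromosome 18, 4375592 to 4397330, plus strand) had 142.2, 158.9 and 167.3 CPM as lowest, median and highest in PSGL1_KO libraries, against 112.1, 140.5 and 159.9 CPM in vector libraries. Of the 6 PSGL1_KO libraries 3 exceeded every vector library, and the lowest 2 vector libraries were replicates 1 and 2. Its log2 fold change was 0.17 (95% interval -0.10 to 0.44; adjusted p = 0.42), and -0.05 with factors from the stretches. An antisense gene, Gm26865, shares 1147 bases or 18.5% of the exon length of Mtpap, and its ID had 15 to 99 counts per library. On the same strand AC138768.3 shares 224 bases or 3.6%, and its ID had 0 counts in every library.

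**Figure D3:**
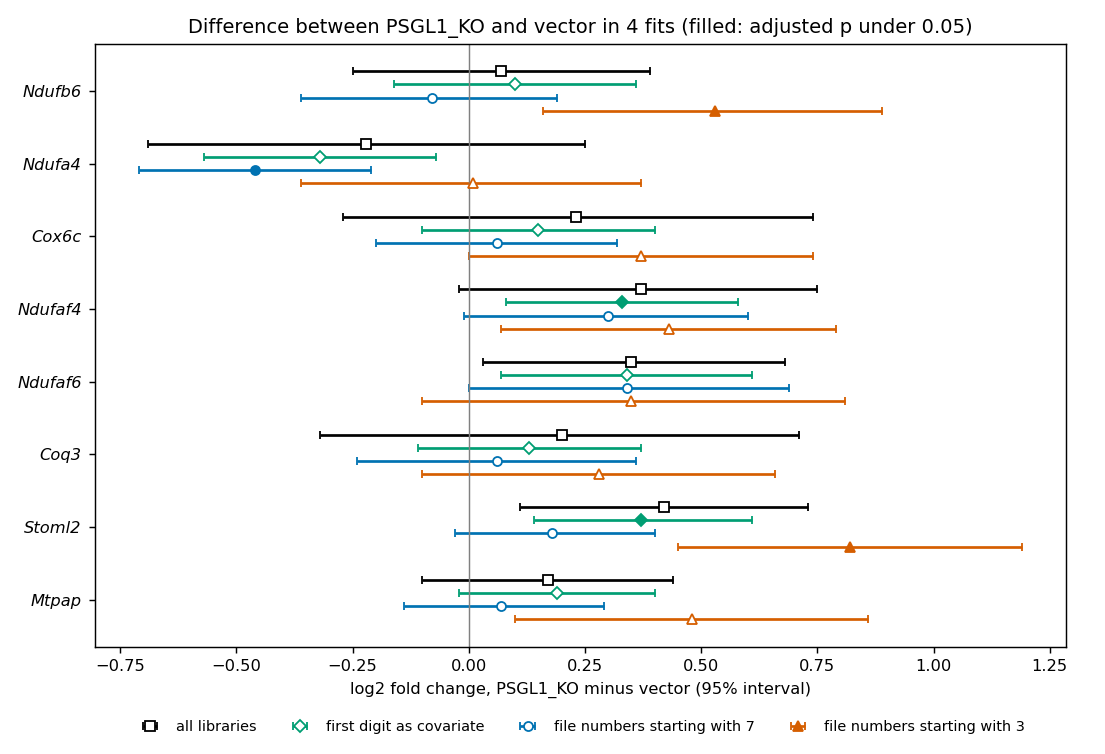
Log2 fold change (x axis, PSGL1_KO minus vector) with its 95% interval for each gene in 4 edgeR fits, over all libraries, with the first digit of the file number as a covariate, and within each file-number set; filled symbols have an adjusted p under 0.05. Ndufa4 is filled within the file numbers starting with 7 at -0.46, and Stoml2 and Ndufb6 within those starting with 3 at 0.82 and 0.53. With the covariate Stoml2 and Ndufaf4 are filled at 0.37 and 0.33. No gene is filled in the fit over all libraries without the covariate.

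The libraries with file numbers starting with 7 had lower levels of 5 of the 8 genes than those starting with 3, in a fit with the group as the other term. In it 39.8% of all IDs were called, 18.9% lower and 20.9% higher. Among the protein-coding IDs of the stretches 52.3% were called, 38.8% lower and 13.5% higher, so most of those called there were lower as well. Coq3 had 80.2 ± 11.7 CPM in the libraries starting with 7 (SD, n = 9) and 153.4 ± 16.5 CPM in those starting with 3 (SD, n = 4), a log2 difference of -0.92 ± 0.12 with adjusted p = 7.1e-06 in the edgeR test. Cox6c had 962.3 ± 122.6 CPM in the libraries starting with 7 and 1814 ± 319.4 CPM in those starting with 3, or -0.90 ± 0.12 with adjusted p = 1.3e-05. Ndufa4 had 538 ± 106.2 CPM with a 7 and 909.5 ± 113.5 CPM with a 3, or -0.80 ± 0.13 with adjusted p = 4.9e-05. In these 3 genes all 9 libraries starting with 7 lay below all 4 starting with 3, as 7.98% of IDs did.

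Ndufaf4 had a log2 difference of -0.53 ± 0.13 with adjusted p = 0.0024, and Stoml2 -0.32 ± 0.12 with adjusted p = 0.037. The call of Stoml2 was lost without a filter on low counts, at -0.27 with adjusted p = 0.18, with factors from the stretches, at -0.12, with factors computed without the mitochondrial chromosome, at adjusted p = 0.061, and without vector replicate 5 or without PSGL1_KO replicate 1, 2, 4, 5 or 6, at adjusted p from 0.065 to 0.14. Ndufb6 and Mtpap had the opposite sign, 0.24 and 0.22, with adjusted p of 0.17 and 0.12. With factors from the stretches both were called, at 0.44 and 0.41, and Coq3, Cox6c, Ndufa4 and Ndufaf4 stayed called lower at -0.74, -0.70, -0.60 and -0.34. Ndufaf6 had -0.22 with adjusted p = 0.23. Among the structural subunits, both complex IV genes were thus called lower in the libraries with a 7, and the complex I gene Ndufb6 was not. With 2 genes and 1 gene this describes these genes and not their complexes.

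Of 5 proliferation markers 2 were lower in the libraries starting with 7, Smc2 at -0.92 with adjusted p = 2.6e-06 and Ccne2 at -0.62 with adjusted p = 0.0022, while Melk, Skp2 and Rad54b had 0.02, -0.22 and 0.10 and were not called. The summed level of 5 proliferation genes (Ccne2, Melk, Smc2, Skp2 and Rad54b) was 700.2 to 856.2 CPM in libraries starting with 7 and 1098 to 1377 CPM in those starting with 3, and Smc2 had the highest level of the 5. Its part in the result was not tested. Between the groups, 3 of 5 myeloid and B-lineage markers were higher in PSGL1_KO and 0 lower, and their sum was 496.4 to 691.9 CPM in PSGL1_KO and 148.7 to 221.5 CPM in vector libraries. Of 4 T-lineage markers 1 was higher and 1 lower, with sums of 362.7 to 556.9 CPM in PSGL1_KO and 433.6 to 606.4 CPM in vector libraries. Of 11 stromal markers tested 4 were higher and 0 lower, with sums of 1192 to 4749 CPM in PSGL1_KO and 1028 to 2567 CPM in vector libraries. Most of that sum was Col1a2, with means of 2617 CPM in PSGL1_KO and 1428 CPM in vector libraries, which was not called (0.87, edgeR adjusted p = 0.0833). Of the protein-coding IDs tested in the stretches 21.7% were called higher and 2.75% lower. Of the 5 proliferation genes 0 were called between the groups. The stromal markers Osr2 and Npr3 did not pass the filter on low counts and were not tested. The part of these cell types in the values of the 8 genes was not tested.

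Per exon length the 8 genes spanned more than an order of magnitude. The unit here is TMM-normalised CPM per 1000 bases of annotated exon, and the values are the median and the range over all 13 libraries. Ndufb6 was highest at 559 (393 to 685), followed by Ndufa4 at 433 (284 to 754) and Cox6c at 285 (230 to 638). Ndufb6 exceeded Ndufa4 in 9 of 13 libraries and their ranges overlapped. The 9 were all those with file numbers starting with 7, and Ndufa4 was above in all those starting with 3. The order of these neighbours thus went with the file number. Ndufa4 exceeded Cox6c in all 13, but the exon length of Cox6c, 3567 bases, includes a long alternative exon, and the value would be higher over a shorter transcript.

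The other genes lay below the subunits. Stoml2 had 119 (104 to 204) and Ndufaf4 73.2 (47.9 to 126), with Stoml2 above Ndufaf4 in 13 of 13 libraries. Ndufaf6 at 31.0 (22.8 to 44.2), Coq3 at 28.3 (21.1 to 56.3) and Mtpap at 24.7 (18.1 to 27.0) were lowest. Ndufaf6 exceeded Coq3 in 6 of 13 libraries, all of them with file numbers starting with 7. In each library starting with 3 Coq3 was above, and among those starting with 7 neither was above throughout. The ranges of Cox6c and Stoml2 did not overlap. This order rests on exon lengths summed over all annotated transcripts, which were also long for Ndufaf4 (3902 bases), Stoml2 (3022 bases) and Mtpap (6198 bases). Over shorter transcripts their values would be higher.

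**Figure D4:**
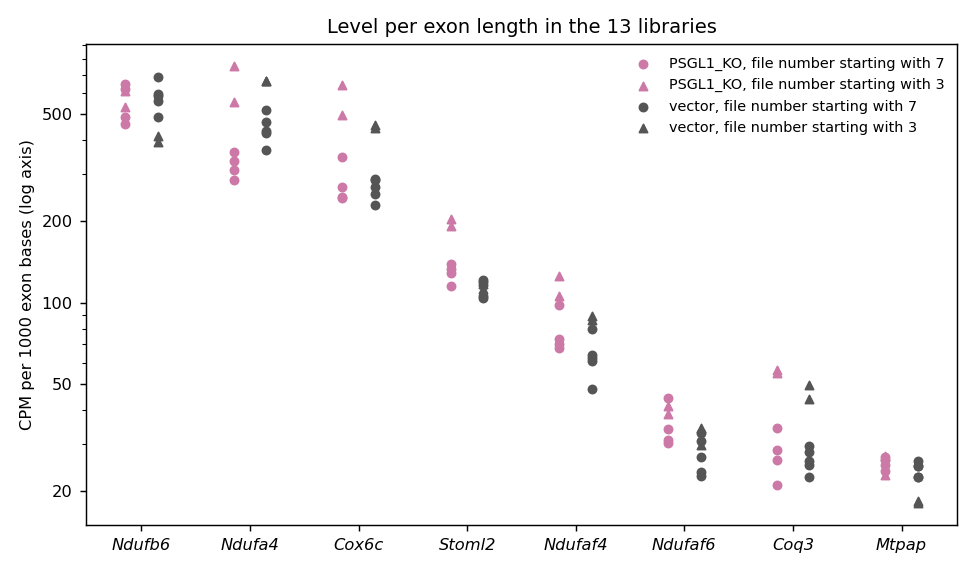
Level of each gene in TMM-normalised CPM per 1000 exon bases (log axis) in each library, PSGL1_KO left of vector, circles for file numbers starting with 7 and triangles for those starting with 3. The genes are in order of their median, from Ndufb6 at 559 to Mtpap at 24.7.

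RefSeq's table on GRCm38.p6 gives 250 bases before to 50 bases from each start, and 5 of the 8 genes have a window that can be shown. Cox6c and Ndufaf6 had no window there, and that of Mtpap was not analysed here. Nuclear respiratory chain genes are known for sites of NRF1 and of the ETS factor GABP (also called NRF2), so GCGCA, any base and GCGC in a row for NRF1, CCGGAAG for ETS factors and AAGATGG for YY1 were searched on both strands. No window of these genes held more than 1 match. Ndufaf4, Stoml2 and the downstream start of Coq3 are shown because these genes were called between the file-number sets and hold a match, in capitals.
Ndufaf4, chr4:24897833-24898132, plus strand: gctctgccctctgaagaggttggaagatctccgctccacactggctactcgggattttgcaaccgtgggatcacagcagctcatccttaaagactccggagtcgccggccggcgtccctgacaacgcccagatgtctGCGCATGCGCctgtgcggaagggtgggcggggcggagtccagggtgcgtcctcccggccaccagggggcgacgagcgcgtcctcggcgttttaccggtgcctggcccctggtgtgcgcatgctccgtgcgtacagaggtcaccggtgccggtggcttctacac
Coq3, chr4:21879603-21879902, plus strand: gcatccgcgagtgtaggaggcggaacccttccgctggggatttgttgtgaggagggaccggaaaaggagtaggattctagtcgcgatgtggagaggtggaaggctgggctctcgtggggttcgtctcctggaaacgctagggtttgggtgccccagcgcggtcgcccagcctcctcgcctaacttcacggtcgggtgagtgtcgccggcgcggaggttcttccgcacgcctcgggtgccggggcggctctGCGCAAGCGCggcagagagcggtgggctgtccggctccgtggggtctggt
Stoml2, chr4:43031335-43031634, minus strand: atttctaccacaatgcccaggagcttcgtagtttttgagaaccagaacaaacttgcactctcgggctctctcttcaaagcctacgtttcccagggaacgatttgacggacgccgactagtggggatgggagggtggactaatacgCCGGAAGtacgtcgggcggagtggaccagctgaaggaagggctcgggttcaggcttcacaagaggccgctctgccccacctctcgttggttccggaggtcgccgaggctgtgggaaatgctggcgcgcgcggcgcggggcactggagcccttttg
The NRF1 letters began 113 bases before the start in Ndufaf4 and at the start base itself in Coq3, and 4.6% of all 32851 windows hold them. The ETS letters began 105 bases before the start in Stoml2, and also occurred in the window of Ndufb6, against 8.9% of all windows. The window of Ndufa4, also lower with a 7, held none of the 3 motifs, and AAGATGG was in none of the 5 genes' windows and in 6.3% of all windows. A match describes letters and is not evidence of binding.

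Few other nuclear genes of the pathway could be read. Lists of respiratory chain genes were counted where their IDs lie in the stretches or on the mitochondrial chromosome. Of 37 nuclear complex I subunit genes listed only Ndufb6 did, and of 16 nuclear complex IV genes only Ndufa4 and Cox6c. Of the nuclear genes of complexes II, III and V none did. Subunit genes of the mitochondrial DNA were listed apart, with 12 tested, and are given below. Of 48 assembly factors 5 were tested and 0 called, with a median log2 fold change of 0.29. Beside Ndufaf4 and Ndufaf6 these were Sdhaf3, an assembly factor of complex II, with 23.4 ± 8.59 CPM in PSGL1_KO and 33.7 ± 9.56 CPM in vector libraries (-0.53, adjusted p = 0.148), Lyrm2, a small LYR-motif protein, with -0.21, and Chchd7, whose yeast relative serves complex IV, with 0.29. Between the file-number sets Sdhaf3 had -0.71 with adjusted p = 0.002, Lyrm2 -0.43 with adjusted p = 0.021 and Chchd7 -0.16 with adjusted p = 0.42. Rars2, which charges mitochondrial arginine tRNA, had 0.27 between the groups and -0.85 between the file-number sets, with adjusted p of 0.486 and 1.1e-05.

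In a mixed list of 17 tested genes, most of them for mitochondrial proteins, 3 were higher and 0 lower in PSGL1_KO, with a median of 0.13, where 21.7% of the protein-coding IDs of the stretches were called higher, so the list held no surplus of calls. These were Pdk4, a kinase that inhibits pyruvate dehydrogenase, at 2.02 with adjusted p = 0.00751, Slc25a13, an aspartate and glutamate carrier, at 1.05 with adjusted p = 0.0158, and Nipsnap3b at 0.56 with adjusted p = 0.0193. None of these 3 encodes a respiratory chain subunit. The genes of the mitochondrial DNA had negative log2 fold changes in 12 of 12 members tested and none was called. Their summed level was 88210 to 165800 CPM in PSGL1_KO libraries and 115400 to 164100 CPM in the vector libraries other than replicate 5, which had 453400 CPM. Without that library, in a fit added after seeing the data, 6 of the 12 were negative and 6 positive, 0 were called by edgeR and 1 had an unadjusted p under 0.05, with a median log2 fold change of 0.02 in place of -0.39. The summed level of the 8 nuclear genes in that library, 2864 CPM, lay inside the 2394 to 3069 CPM of the other vector libraries starting with 7. This holds after TMM scaling, with a factor of 0.746 for that library. As a share of gene counts the 8 genes made up 0.212% there, below the 0.232% to 0.29% of those other libraries.

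For each gene the 2 protein-coding genes of the stretches most like it across the 13 libraries were taken by Pearson's correlation of log2 CPM, among 319 candidates. These values only describe, since the libraries share group, file number and depth. Cox6c was most like Mrpl50, a mitochondrial ribosomal protein gene (0.98), and Map3k7 (0.97). Coq3 was most like Orc3 (0.95) and Rars2 (0.94), and Ndufa4 like Rpa3 (0.95) and Sem1 (0.94). Ndufaf4 was most like Tmem68 (0.95) and Tomm5, a subunit of the mitochondrial import pore (0.93), and Stoml2 like Rab2a (0.94) and Pop1 (0.93). Mtpap was most like Pnrc1 (0.89) and Tmod1 (0.87), Ndufaf6 like Pnisr and Retreg1 (both 0.77), and Ndufb6 like Snx31 (0.83) and Smim27 (0.88), whose exons it overlaps.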

How the data were processed

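Sorted CD45-positive cells of EL4 tumours were measured by RNA-seq in 6 PSGL1_KO and 7 vector libraries, grouped by title. The authors deposited raw read counts per gene ID; the submitters' processing notes name HISAT2, SAMtools, HTSeq and mm10, while no version, annotation release or strandedness is stated in the sources used here. The 5 summary rows were left out of library sizes and tests; 67.3% to 75.4% of all rows' totals were reads over no feature. Symbols and coordinates came from GENCODE M21 (GRCm38), matched for 52073 of 56923 IDs without version; the files' IDs of all 8 genes carried a later version, so exon limits may differ. Names outside the 4 stretches and the mitochondrial chromosome were not used, apart from stating where Selplg and Ptprc lie.

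Counts were tested with edgeR 4.0.16 in R 4.3.3 (filterByExpr, TMM, robust quasi-likelihood fit, group as the only term, two-sided, Benjamini-Hochberg adjustment, limma 3.58.1), and checked on simulated data. File-number terms and their interaction with group used the same settings. Alternatives were RLE factors, DESeq2 1.42.0, no filter, other scaling sets, a file-number covariate, each file-number set, a replicate block and leaving out each library. The members and gene lists were chosen with earlier results of these data known. By the rule for named genes, the text names the 8 members, listed pathway genes in the stretches that were respiratory chain genes or passed the test, genes with overlapping exons, and the 2 most alike genes per member. Among pairs of libraries within a group none agreed within sampling noise. The lowest mean chi-square per ID was 2.99, 3.57 and 3.64, for the pairs among vector replicates 3, 4 and 7. The other pairs within a group had 5.23 to 84.2. Counting error weighs most on Ndufaf6, with 116 to 292 counts per library.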

Additional observations from a re-analysis of the deposited data

Results flagged for a closer look

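Dixon's criterion was applied to the levels of each gene within each group, to find a library far from its group. Of these 16 sets of values 0 held one, where chance gives about 1 in 20 for values of a single kind. Each group held 2 libraries with file numbers starting with 3. When 2 libraries stand apart together, as in Ndufa4, Cox6c and Coq3, each can mask the other under this criterion. The absence of a flag therefore does not show that no library stood apart. The test of a differing PSGL1_KO effect between the file-number sets passed for 0 of the 8 genes.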

How the results depend on the processing

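Between PSGL1_KO and vector, 0 genes of the 8 were called with RLE factors, without a filter on low counts, with factors from the protein-coding IDs of the stretches or with factors without the mitochondrial chromosome. DESeq2 called 1 higher, the file-number covariate 2, and the file numbers starting with 3 alone 2, while those starting with 7 alone gave 1 lower. The called IDs were 580 higher and 1320 lower with factors from the stretches, which gave Cox6c -0.05, Ndufb6 -0.16, Coq3 -0.08 and Mtpap -0.05. They were 1435 higher and 1254 lower with the covariate, and 1038 and 1135 lower within the file numbers starting with 7 and with 3. There Ndufb6 had -0.08 (7) and Ndufa4 0.01 (3). Replicate numbers did not pair the libraries: same-numbered correlations of deviations from the group means were -0.05 to 0.6, and 2 of 6 PSGL1_KO libraries were most like the vector library of their number. The replicate block gave 881 IDs lower and called 1 gene of the 8 higher, Stoml2 at 0.41 with edgeR adjusted p = 0.047. In that fit 3439 of 10406 IDs and 3 of the 8 genes had an unadjusted p under 0.05. Leaving out 1 library at a time gave 753 to 1034 IDs higher, 428 to 607 lower, and 0 to 1 of the 8 higher, the 1 being Stoml2 without PSGL1_KO replicate 6.

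Between file numbers starting with 7 and 3, factors from the stretches gave 2986 IDs higher and 1173 lower. Of the 8 genes 2 were then higher and 4 lower. Leaving out 1 library gave 4 to 5 of the 8 lower. For the difference of the PSGL1_KO effect between these sets, whose alternatives were added after seeing the data, DESeq2 called 218 IDs higher and 314 lower, with 1 of the 8 lower. No filter gave 157 lower, factors without the mitochondrial chromosome 184 lower, and factors from the stretches 365 higher and 29 lower. Ndufaf6 had -0.01 with RLE factors, -0.01 with DESeq2, -0.03 without the mitochondrial chromosome and -0.17 to 0.13 leaving out 1 library. Cox6c had 0.06, Ndufaf4 0.23 and Coq3 0.13 with factors from the stretches. Leaving out 1 library gave 1 to 224 IDs higher, 2 to 437 lower and 0 to 1 of the 8 lower, with both highest counts without vector replicate 5. The checks of calls in the covariate fit and within 1 file-number set were also added after seeing the data. The cause of these changes was not tested. Group sizes of 2 against 2 and 4 against 5 limit the values within a file-number set.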
